A study of Mus musculus with 2 samples.

Results

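A set of 10 JAK-STAT signalling genes, out of the 32285 genes in each count matrix, was followed through the cell types of chimeric mouse lungs. The set holds the feedback inhibitors Cish, Socs1, Socs2 and Socs3, the transcription factors Stat3 and Stat5a, the receptor chains Il6st, Osmr and Lifr, and the kinase gene Pim1. The genes were listed by symbol, and all 10 were found in both matrices, each under a single gene identifier. The list was drawn up because Socs3 and Cish had led part of the general capillary cells in the same data, so high levels of these genes there describe the choice and support nothing.

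The recipients were C57Bl mice that had been given a suspension of single cells carrying the red reporter TdTom 6 months before harvest. The lungs of 3 chimeric mice were dissociated with enzymes and pooled, and live cells without the leukocyte antigen CD45 were sorted by the reporter. Cells with it (called donor cells in the labels) gave the donor library and cells without it (C57BL recipient cells) the recipient library, both on the 10x Genomics platform. The donor strain, the age and sex of the mice, any conditioning before the transplant and the driver of the reporter are not given in the sources used here, and neither matrix has a reporter gene with which to check the sort. With 1 library per group there was no replicate. Every interval below is a 95% interval for counting error only, and no test between the libraries was possible.

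The donor library held 6319 barcodes and 37997269 UMIs (unique molecular identifiers, tags that count single captured transcripts), and the recipient library 3784 barcodes and 26201315 UMIs. Of these barcodes, 816 occurred in both libraries. The donor copy was more than 5-fold smaller in 728 of them and the recipient copy in 48. Smaller copies were left out, and both copies where they were within 5-fold. Filtering left 4573 donor-library and 3184 recipient-library cells, of which 4337 and 2918 were assigned to a cell type by UMIs of marker genes. Levels are given as CPM, a gene's UMIs per 1000000 UMIs of all genes, summed over the cells of a type, for the 4 donor-library and 9 recipient-library types with at least 50 cells. General capillary cells numbered 2516 (donor) and 400 (recipient), aerocytes 1551 and 625, and venous cells 109 and 95. Arterial cells were used from the donor library (57). The recipient library alone gave lymphatic (73), alveolar type 1 (182), pericyte (497), alveolar fibroblast (673), adventitial fibroblast (173) and myofibroblast (120) cells. Leukocyte markers summed to at most 10.2 CPM in any of these types, with Ptprc, Coro1a, Laptm5, Tyrobp, Cd52 and Cd53 counted.

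JAK-STAT signalling carries cytokine messages to the nucleus. A cytokine brings receptor chains together, the Janus kinases bound to them are activated, and STAT proteins are phosphorylated, pair up and bind DNA. CISH and SOCS proteins are made in response and block the receptor or the kinase, which closes a negative feedback loop. Il6st encodes gp130, the signalling chain shared by receptors for IL-6, LIF, oncostatin M and related cytokines, and Lifr and Osmr encode chains that pair with it. SOCS3 binds gp130 and restrains STAT3, whereas CISH is best known as a target and inhibitor of STAT5. Of the 2 lung capillary cell types, general capillary cells act as the progenitors of the capillary bed and aerocytes are large cells specialised for gas exchange.

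STAT dimers recognise a palindrome, TTCNNNGAA, which reads the same on both strands. It was searched in RefSeq promoter windows of GRCm38.p6 reaching from 250 bases before to 50 bases after each start, which were at hand for 9 of the 10 genes. The 2 genes whose windows held it are the 2 that gave rise to the list, so both stretches are shown, with the matches in capitals. They lie at chr9:107296654-107296683 on the plus strand for Cish, within an untranslated first exon of a GENCODE M21 transcript, and at chr11:117969461-117969560 on the minus strand for Socs3, upstream of the start of the coding transcript.
Cish: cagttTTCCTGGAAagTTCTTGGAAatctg
Socs3: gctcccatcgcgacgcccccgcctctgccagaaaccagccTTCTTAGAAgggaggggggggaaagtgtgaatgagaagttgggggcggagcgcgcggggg

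The Cish window held 2 matches, starting at positions 1 and 12 from its start site and separated by 2 bases. The Socs3 window held 1 match, starting at position -154. No other window of Socs1, Stat3, Stat5a, Il6st, Osmr, Lifr or Pim1 held these letters. The palindrome occurred in 2726 of 32851 promoter windows of all genes (8.30%), in 2 of the 12 windows of the listed genes and in 9 of 81 windows (11.1%) of other genes of the pathway. Pairs of matches were rarer, in 0.457% of all windows. A match describes the letters in the window and not a bound site.

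Among the feedback inhibitors, Socs3 (ENSMUSG00000053113, mm10 chromosome 11, 117966079 to 117970047, minus strand) rested on at least 111 UMIs in every type. In general capillary cells it stood at 2100.0 CPM (2076 to 2124) in the donor library and 2178 CPM (2119 to 2239) in the recipient library. In venous cells it was 2092 and 2869 CPM, and in donor-library arterial cells 864 CPM. General capillary and venous cells were thus the high types of both libraries. The venous cells also held general capillary markers at 5287 CPM (donor) and 4535 CPM (recipient), beside 9563 and 8965 CPM in general capillary cells themselves, so the 2 gated types are not fully distinct. Aerocytes were low, with 406 CPM in the donor library and 289.7 CPM in the recipient library. Outside blood vessels, recipient-library myofibroblasts had 1528 CPM (1443 to 1617), alveolar fibroblasts 899 CPM, adventitial fibroblasts 849 CPM and pericytes 687 CPM. Lymphatic cells had 354 CPM, and alveolar type 1 cells, the flat epithelial cells of the air sacs, were lowest with 42.2 CPM (34.7 to 50.9). Of the 8 neighbouring pairs in the recipient-library order, 7 were separated by more than counting error. The pair that was not was alveolar over adventitial fibroblasts, with a ratio of 1.06 (0.999 to 1.12). Without barcodes found in both libraries, myofibroblasts had 1337 CPM (1244 to 1435) and alveolar fibroblasts 713 CPM (681 to 746). Adventitial fibroblasts then had 645 CPM (565 to 734) and lymphatic cells 427 CPM (354 to 511). The order of neighbouring pairs was not tested again on these levels. In the donor library, general capillary and venous cells were not separated, at 1.004 (0.959 to 1.05).

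Cish (ENSMUSG00000032578, chromosome 9, 107296026 to 107302784, plus strand) was narrower in its distribution. It reached 273 CPM (264 to 281) in donor-library and 204 CPM (186 to 223) in recipient-library general capillary cells. Venous cells held 127 and 134 CPM, aerocytes 93.1 and 60.8 CPM, and donor-library arterial cells 73.3 CPM. Blood endothelium therefore carried Cish throughout, with general capillary cells highest in each library. Alveolar type 1 cells were the 1 type outside blood endothelium at a like level, with 86.0 CPM (75.2 to 98.0) from 226 UMIs. Of these 182 cells, 139 carried a barcode also found in the donor library, and without all such barcodes the level was 71.5 CPM (39.1 to 120). Pericytes, both kinds of fibroblast, myofibroblasts and lymphatic cells held between 4.52 and 16.5 CPM, the last in myofibroblasts, where it was 8.69 CPM without such barcodes. A gene model on the opposite strand, Gm17041, overlaps Cish over 1459 bases, and the strand setting of the counting is not given in the sources used here.

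Among general capillary, venous and aerocyte cells, Socs1 levels fell in that order in both libraries. General capillary and venous cells were not separated for Socs1, at 1.23 (0.922 to 1.67) in the donor and 1.32 (0.882 to 2.03) in the recipient library. It was also high in fibroblasts, and Socs2 had another order. Socs1, the inhibitor best known from interferon signalling, stood at 63.9 and 50.4 CPM in general capillary cells of the donor and recipient libraries, 52.0 and 38.2 CPM in venous cells and 18.2 and 17.6 CPM in aerocytes. In the recipient library it was highest in adventitial fibroblasts, at 82.5 CPM (69.6 to 97.0), followed by alveolar fibroblasts at 66.8 CPM. Without the barcodes found in both libraries, adventitial fibroblasts had 33.1 CPM (17.1 to 57.8) and were no longer the highest. Of those 173 cells, 117 carried such a barcode. Socs1 gave 1 UMI in lymphatic cells. Socs2, an inhibitor of growth hormone signalling, was highest in recipient-library alveolar fibroblasts at 306 CPM (290.1 to 322) and myofibroblasts at 234 CPM. Venous cells had 196 CPM in the donor library and 222 CPM in the recipient library, general capillary cells 144 and 140.5 CPM, arterial cells 131 CPM and aerocytes 55.0 and 51.7 CPM. The lowest value was 5.71 CPM in alveolar type 1 cells, where Socs1 (6.09 CPM) was low too.

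Stat3, which transmits gp130 signals, varied within a narrow range. In the donor library it ranged from 89.9 CPM in aerocytes to 165 CPM in general capillary cells, and in the recipient library from 63.6 CPM in alveolar type 1 cells to 212 CPM in venous cells. Of the 8 neighbouring pairs in the recipient library, 3 were separated by more than counting error. Stat5a was sparse, with 137 and 21 UMIs in general capillary cells (9.57 and 8.96 CPM). It was lowest in aerocytes, with 12 UMIs (0.865 CPM) in the donor library and 2 UMIs (0.419 CPM) in the recipient library. All other types lay between 3.45 and 17.8 CPM, with intervals that mostly overlapped. Stat5a has a near-identical neighbour, Stat5b, so its counts are uncertain, and its end overlaps that of Stat3 over 72 bases on the opposite strand.

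In the donor library the levels of Il6st and Lifr had the same order, venous over general capillary over arterial over aerocyte cells, and Osmr had another. In the recipient library venous cells led for Il6st and Lifr, followed by general capillary cells, and the types after these differed. Il6st was highest in venous cells, at 551 CPM (504 to 600.3) in the donor library and 1054 CPM (985 to 1127) in the recipient library. General capillary cells followed in both, with 256 and 294 CPM, then donor-library arterial cells with 251 CPM. Aerocytes held 101 and 105 CPM. In the recipient library, pericytes (262 CPM) and adventitial fibroblasts (238 CPM) were close to general capillary cells. Alveolar type 1 cells were lowest at 71.9 CPM. Without barcodes found in both libraries, alveolar type 1 cells had 35.7 CPM (14.4 to 73.6) and adventitial fibroblasts 190 CPM (148 to 241). Every type therefore held some Il6st.

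Lifr was highest in blood endothelium. It stood at 201 CPM in donor-library and 210.0 CPM in recipient-library general capillary cells, 214 and 216 CPM in venous cells, 159.7 CPM in arterial cells and 132 and 151 CPM in aerocytes. None of the 3 neighbouring pairs in the donor library was separated by more than counting error. Recipient-library alveolar fibroblasts, myofibroblasts, pericytes, lymphatic cells and adventitial fibroblasts held 39.0 to 91.1 CPM. Alveolar type 1 cells gave 3 UMIs (1.14 CPM). Osmr, the oncostatin M receptor chain, was highest in alveolar fibroblasts at 143 CPM (132 to 154). It stood at 61.9 and 52.9 CPM in general capillary cells, 32.9 and 61.6 CPM in venous cells, 78.6 CPM in arterial and 74.6 CPM in lymphatic cells, against 7.43 and 8.80 CPM in aerocytes. Pericytes had 4.21 CPM and alveolar type 1 cells 1 UMI. Aerocytes thus held Lifr and Il6st with little Osmr.

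Pim1, a survival kinase induced by STATs, was high in recipient-library venous cells (281 CPM), alveolar fibroblasts (261 CPM) and adventitial fibroblasts (220.3 CPM), and in general capillary cells of both libraries (250.1 and 219 CPM). Without barcodes found in both libraries, adventitial fibroblasts had 146 CPM (109 to 191). Aerocytes held 87.2 and 86.9 CPM. Pericytes (18.8 CPM) and alveolar type 1 cells (19.0 CPM) were lowest. Gm26885 overlaps Pim1 over 1173 bases on the opposite strand.

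**Figure D1:**
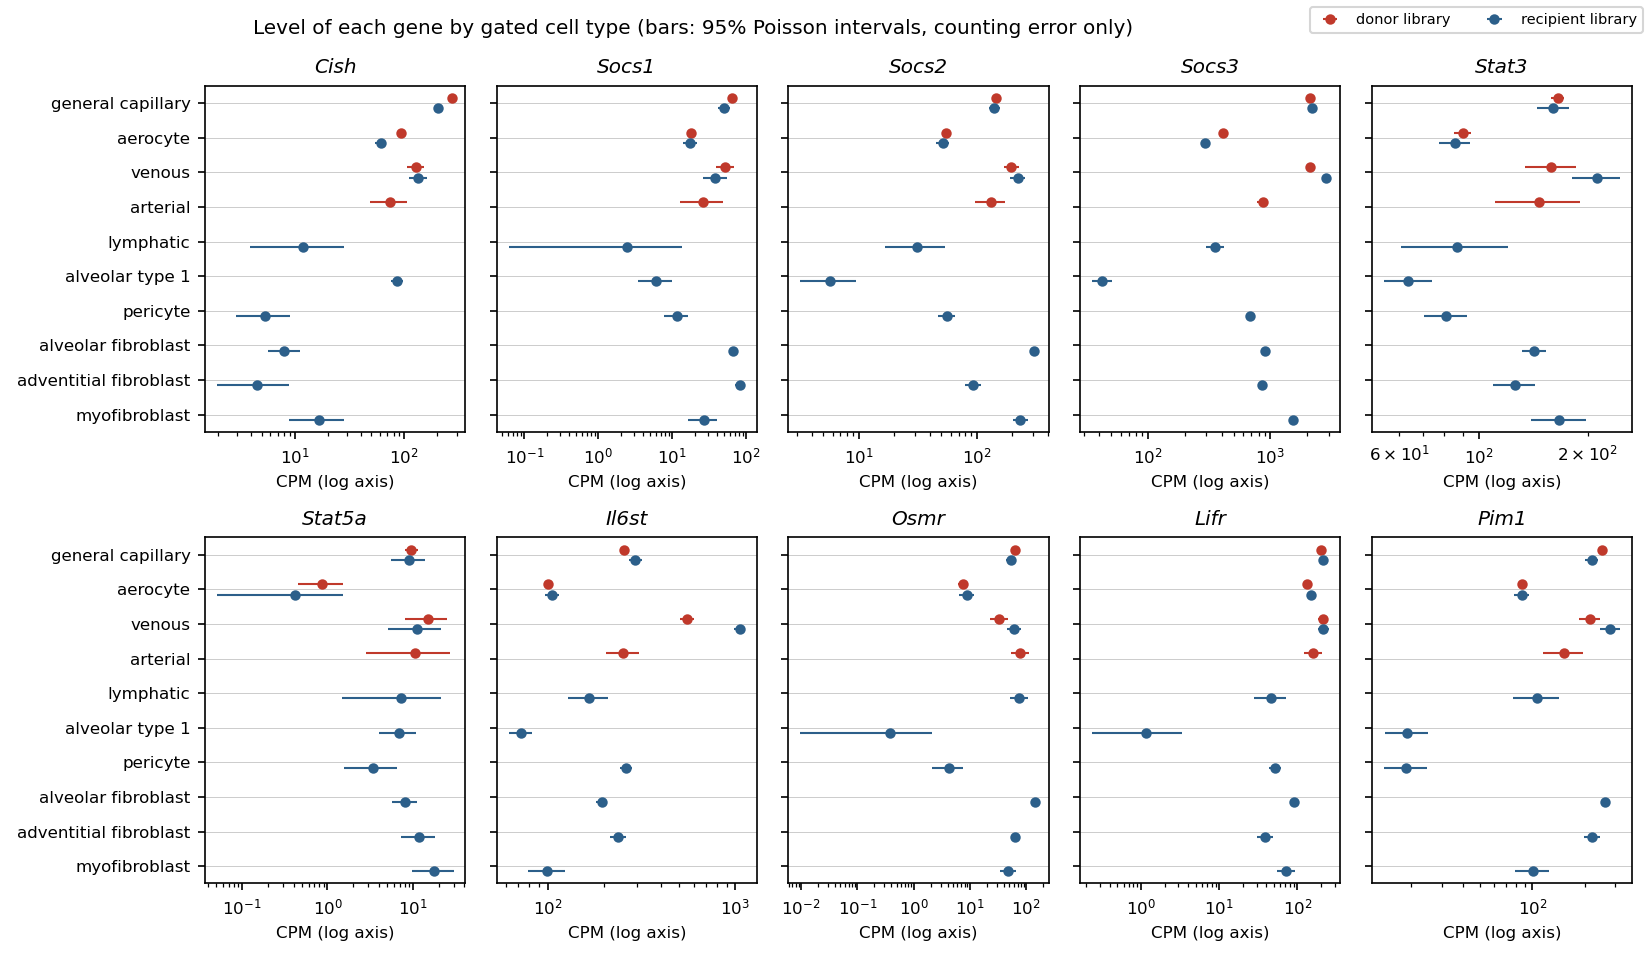
Level of each of the 10 genes in CPM (log axis) by cell type, red for the donor and blue for the recipient library, with 95% Poisson intervals for counting error. Socs3 and Cish sit low in aerocytes (406 and 289.7 CPM, 93.1 and 60.8 CPM) beside general capillary cells, Il6st peaks in venous cells and Osmr in alveolar fibroblasts.

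The same contrast between the 2 capillary types was seen in both libraries, for genes that were chosen for it. Levels were counted as apart when their ratio reached 1.5-fold either way and its interval left out equality. In the donor library all 10 genes were higher in general capillary cells than in aerocytes by this rule, where 26.6% of all genes tested were higher and 14.4% lower, and in the recipient library 9 of 10 were, where 20.5% were higher and 14.1% lower. The exception was Lifr, at 1.39-fold (1.24 to 1.56). Socs3 was 5.17-fold higher (5.02 to 5.32) in the donor library and 7.52-fold higher (7.08 to 7.98) in the recipient library. The ratios for Cish were 2.93 (2.75 to 3.12) and 3.35 (2.89 to 3.89). Osmr was 8.33-fold (6.79 to 10.3) and 6.02-fold (4.21 to 8.75) higher, and Stat5a 11.1-fold (6.13 to 21.9) and 21.4-fold (5.23 to 188), the last resting on 2 aerocyte UMIs. The choice of genes used this contrast, so nothing is read from these counts.

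Against venous cells, by the same rule, general capillary cells were higher in 2 genes and lower in 1 in the donor library. In the recipient library they were higher in 1 and lower in 2. Cish was higher in general capillary cells in both libraries, 2.14-fold (1.78 to 2.59) and 1.52-fold (1.23 to 1.89). Il6st was lower in both, with ratios of 0.465 (0.424 to 0.510) and 0.279 (0.252 to 0.308). Osmr was higher in the donor library, at 1.88-fold (1.32 to 2.79), but not in the recipient library, at 0.860 (0.614 to 1.22). Socs2 was lower in the recipient library, at 0.634 (0.527 to 0.764), and short of the limit in the donor library, at 0.734 (0.631 to 0.858). Intervals also left out equality for Pim1 in both libraries and for Socs3 and Stat3 in the recipient library, all short of 1.5-fold. Among all genes tested, 8.81% were higher and 7.49% lower in the donor library, and 11.2% and 7.71% in the recipient library.

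Overlapping markings of general capillary cells were set beside each other: a UMI of Glp1r, of Hey1 or Sema3g, of Esm1 or Inhbb, and UMIs of at least 2 interferon-induced genes. Socs3 ranged from 1858 CPM (1815 to 1902) in donor-library cells with Esm1 or Inhbb to 2253 CPM (2203 to 2303) in donor-library interferon-marked cells, with intervals that lay apart. The recipient library did not repeat this, with 2223 CPM (2094 to 2358) and 2117 CPM (1991 to 2250). Donor-library Cish was 281 CPM in Glp1r-marked cells, 267 CPM with Hey1 or Sema3g, 269 CPM with Esm1 or Inhbb and 272 CPM with interferon genes. Recipient-library Cish was 206 CPM (187 to 226) in Glp1r-marked and 262 CPM (219 to 312) in interferon-marked cells, with intervals that overlapped. Osmr was higher with Esm1 or Inhbb, at 85.9 CPM (76.9 to 95.7) in the donor library and 80.6 CPM (57.6 to 110) in the recipient library, than in Glp1r-marked cells, at 57.7 CPM (53.5 to 62.2) and 52.0 CPM (42.7 to 62.8). In the donor library Socs1 was lower with Esm1 or Inhbb, at 47.9 CPM (41.2 to 55.3), than in interferon-marked cells, at 81.8 CPM (72.5 to 91.9). The recipient library did not repeat this, with 34.3 CPM (19.96 to 54.9) and 30.5 CPM (17.1 to 50.3). For Osmr the intervals of Glp1r-marked cells and cells with Esm1 or Inhbb lay apart in the donor library and overlapped in the recipient library. Socs3 and Cish were high under every one of these markings. Glp1r marked 2036 and Hey1 or Sema3g 2227 of the 2516 donor-library cells, so similar levels follow in part from shared cells. The 28 donor-library and 9 recipient-library cells with none of the markings had Socs3 at 1654 CPM (1417 to 1920) and 1175 CPM (911 to 1493). Their Cish levels were 277 CPM (186 to 398) and 123 CPM (49.4 to 253).

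The first comparison the sort allows is between donor and recipient general capillary cells. None of the 10 genes was apart between the libraries there, where 9.23% of 12057 genes tested were (3.43% higher and 5.81% lower in the donor library). The median of the 10 log2 ratios of donor over recipient was 0.07, beside -0.01 over all genes. The largest ratio was that of Cish, 1.34 (1.22 to 1.475), followed by Socs1 at 1.27 (1.05 to 1.55) and Pim1 at 1.14 (1.04 to 1.253). Il6st was lower, at 0.871 (0.803 to 0.947), and Socs3 nearly equal, at 0.964 (0.936 to 0.993). The intervals of Socs2, Stat3, Stat5a, Osmr and Lifr included equality. These intervals hold no spread between mice, so they do not show that the small differences are differences between donor and recipient cells.

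In aerocytes, 1 of the 9 genes with enough UMIs was apart, Cish, higher in the donor library at 1.53-fold (1.35 to 1.75). Among all genes tested 5.32% were apart, 1.29% higher and 4.03% lower. Socs3 was 1.40-fold higher (1.32 to 1.49), below the limit of 1.5. The other 7 lay between 0.844 (Osmr) and 1.06 (Socs2), and the median log2 ratio was 0.05 beside -0.02 over all genes. Markers of general capillary cells moved with this difference: their summed level in aerocytes was 461 CPM in the donor library and 341 CPM in the recipient library, with all 7 markers detected in both. Markers of other lineages put the free RNA (RNA in droplets that did not come from the cell) of aerocytes at 11.8% (donor) and 4.02% (recipient). This estimate is uncertain, since in the donor library it was 11.9% in general capillary, 4.85% in venous and 0% in arterial cells. With the aerocyte estimates subtracted, the log2 ratio was 0.43 for Cish, which ended the call, and 0.13 for Socs3. Osmr then became apart, lower in the donor library at -0.91. The 18 early response genes, which many stimuli including tissue dissociation induce, moved with it too, from 14999 CPM in the recipient library to 18183 CPM in the donor library, and their part in the result was not tested.

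In venous cells, Il6st and Osmr were apart and lower in the donor library. Il6st stood at 551 against 1054 CPM, a ratio of 0.522 (0.468 to 0.583), and Osmr at 32.9 against 61.6 CPM, a ratio of 0.534 (0.330 to 0.853) on 31 and 50 UMIs. So 2 of 10 genes were apart, both lower, where 7.98% of all genes tested were apart, 4.37% higher and 3.61% lower. Socs3 (0.729, 0.686 to 0.774), Stat3 (0.747, 0.595 to 0.935) and Pim1 (0.764, 0.629 to 0.927) were lower with intervals that excluded equality but not 1.5-fold apart. Lifr was level at 0.995 (0.808 to 1.23). The median log2 ratio of the 10 genes was -0.28, beside 0.03 over all genes. Early response genes were lower as well, with 36581 CPM in the donor library and 44724 CPM in the recipient library, and the 7 venous markers summed to 10164 and 11338 CPM. Single venous markers differed in both directions, with Selp at 297 CPM (donor) against 677 CPM (recipient), Vcam1 at 916 against 1752 CPM, Slc6a2 at 1016 against 571 CPM and Bst1 at 261 against 171 CPM. The gated venous cells of the libraries thus differed in their markers by as much as in Il6st and Osmr, and the part of either in the result was not tested.

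**Figure D2:**
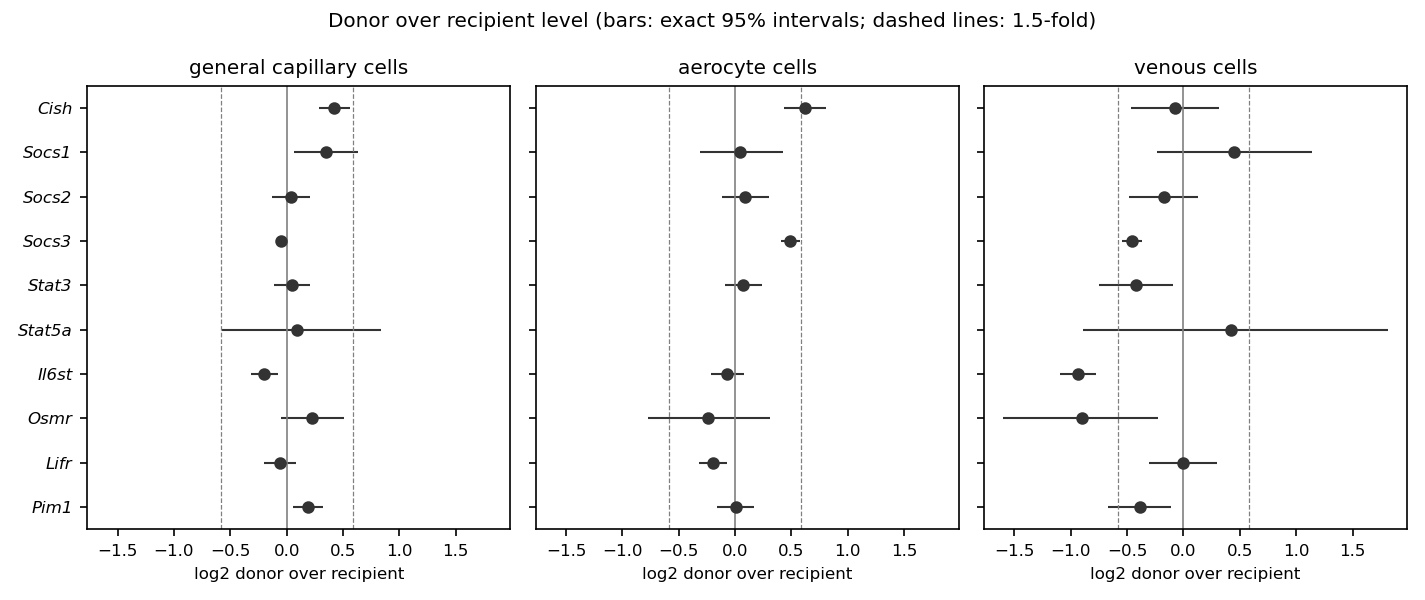
Log2 ratio of donor over recipient level for each gene in general capillary, aerocyte and venous cells, with exact 95% intervals for counting error and dashed lines at 1.5-fold. Points past a dashed line are Cish in aerocytes and Il6st and Osmr in venous cells, and Stat5a was not tested in aerocytes.

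Shares of cells with a UMI followed the levels. To compare types of different depth, each cell was thinned at random to 2000 UMIs, which left out 27 of 2516 and 2 of 400 general capillary cells. Socs3 was then seen in 79.6% (78.0 to 81.2) of donor-library and 79.6% (75.4 to 83.5) of recipient-library general capillary cells, against 87.5% and 87.2% before thinning. In aerocytes the thinned shares were 36.1% (33.7 to 38.6) and 24.7% (21.4 to 28.3), and 82.9% and 84.2% in venous cells. Alveolar type 1 cells had the lowest share, 5.81% (2.82 to 10.4), and a depth well above the others, with a median of 14469 UMIs per cell against 5378 and 5547.5 in general capillary cells.

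Cish was seen in 37.5% (35.6 to 39.4) of thinned donor-library and 29.4% (24.96 to 34.1) of recipient-library general capillary cells, and in 65.7% and 55% before thinning. In aerocytes it was 13.6% (11.9 to 15.4) and 9.05% (6.91 to 11.6). Pericytes, with 1.02% (0.331 to 2.36), and alveolar fibroblasts, with 1.20% (0.522 to 2.36), were lowest, both in the recipient library with estimated free RNA of 2.71% and 4.00%. Recipient-library aerocytes, with an estimated 4.02% of free RNA, had a higher Cish share than both. The part of free RNA in these shares was not tested. No type low in Cish was large enough in the donor library to give its background, where aerocytes held an estimated 11.8% of free RNA. Il6st was seen in 75 of 95 thinned recipient-library venous cells and in 63 of 105 donor-library venous cells.

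Within general capillary cells, Socs3 ranged widely from cell to cell. After thinning, the mean was 4.05 (donor) and 4.48 (recipient) Socs3 UMIs per cell, the median 3 in both, and the 90th percentile 9 and 11. The variance over the mean was 3.85 and 4.37, where a value of 1 is counting noise alone and the value grows with the mean, so that genes of different abundance are not to be ranked by it. The highest cell held 28 and 23 UMIs, while 20.4% of cells in each library held 0. The tenth of cells with most held 31.1% and 31.3% of all Socs3 UMIs. For Cish the variance over the mean was 1.29 and 1.35, and for Pim1 1.49 and 1.51. Il6st, with a mean of 0.514 and 0.603 UMIs close to that of Cish (0.535 and 0.410), had 1.13 and 1.18. In aerocytes the Socs3 value was 2.32 and 1.94, with a mean of 0.709 and 0.414.

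**Figure D3:**
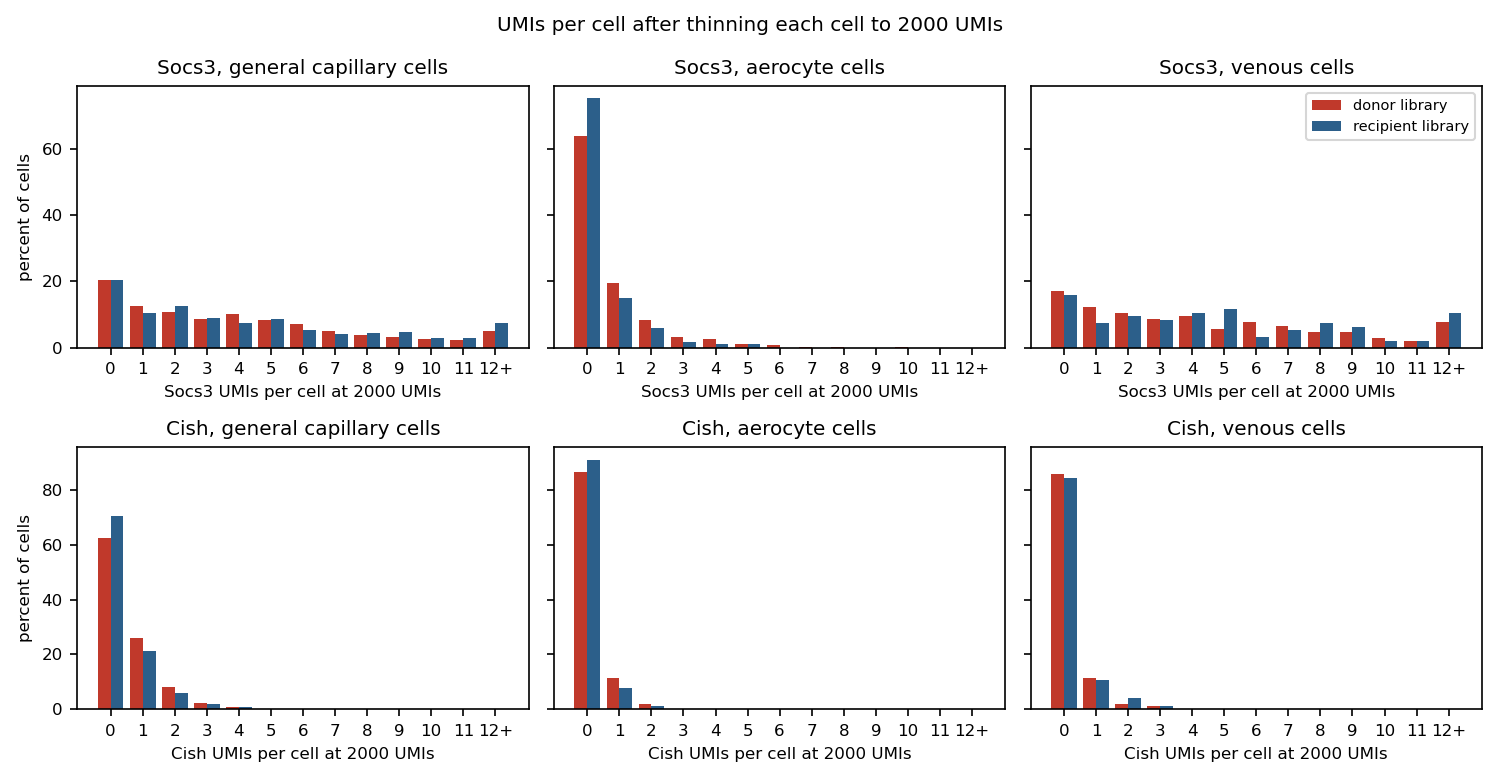
Percent of cells (vertical axis) by number of Socs3 UMIs (upper row) or Cish UMIs (lower row) per cell after thinning to 2000 UMIs, in general capillary, aerocyte and venous cells of the donor (red) and recipient (blue) library. Socs3 forms a broad range from 0 to 12 or more UMIs in general capillary and venous cells and falls off within a few UMIs in aerocytes.

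General capillary cells were next grouped by their Socs3 UMIs after thinning, into cells with 0 (507 donor-library and 81 recipient-library cells), 1 to 2 (576 and 91), 3 to 5 (682 and 98) and 6 or more (724 and 128). Cish was seen in 22.3%, 32.5%, 43.0% and 47.0% of the donor-library groups in that order, and in 16.0%, 26.4%, 29.6% and 39.8% of the recipient-library groups. Socs1 went from 2.96% to 17.5% between the first and last group of the donor library, and from 2.47% to 14.1% in the recipient library. Pim1 went from 24.1% to 41.4% and from 17.3% to 35.9%, and Stat3 from 18.5% to 30.9% and from 17.3% to 35.9%. Socs2 went from 17.8% to 24.3% and from 12.3% to 32.0%. The receptor chains differed less between the first and last group in percentage points, and whether they differ from the other genes was not tested. Il6st went from 37.3% to 39.2% in the donor library and from 44.4% to 50% in the recipient library, Lifr from 33.1% to 33.6% and from 32.1% to 36.7%, and Osmr from 8.48% to 10.2% and from 6.17% to 10.2%.

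The early response genes were higher in the groups with more Socs3 too. Their mean was 28.8, 55.7, 72.0 and 82.3 UMIs per thinned cell in the donor library, and 31.3, 56.4, 70.0 and 79.9 in the recipient library. Median depth before thinning was 4773 UMIs in the donor-library cells without Socs3 and 5366 to 5629 in the others. Whether the link between Socs3 and the other genes is separate from this response was not tested.

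**Figure D4:**
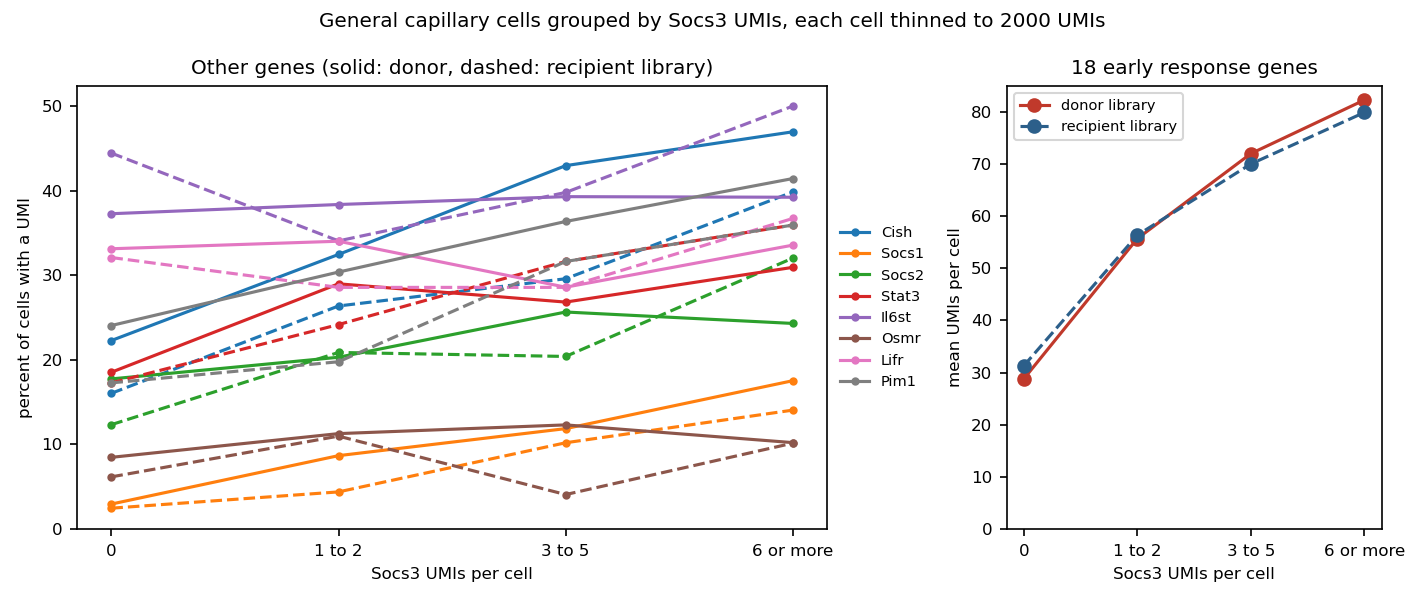
General capillary cells grouped by Socs3 UMIs at 2000 UMIs per cell: percent of cells with a UMI of 8 other listed genes (left; solid donor, dashed recipient) and mean UMIs of the 18 early response genes (right). In the donor library Cish goes from 22.3% to 47.0% and Il6st from 37.3% to 39.2% between the first and last group, and early response UMIs go from 28.8 to 82.3 in the donor library.

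Pairs of genes were also counted in these same thinned cells, which restates the link above and adds no separate support. Donor-library cells with a Cish UMI had a Socs3 UMI in 87.9% (85.6 to 89.9), and cells without one in 74.7% (72.4 to 76.8). The recipient library gave 88.9% (81.7 to 93.9) and 75.8% (70.4 to 80.7). Cells with a Socs1 UMI had Socs3 in 94.5% (91.1 to 96.9) of the donor library, against 77.8% (76.0 to 79.5) of the rest. Il6st was seen in 39.0% of donor-library cells with Socs3 and in 37.3% of those without.

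Beyond the listed genes, the 10 with the largest ratio of CPM between cells with and without a Socs3 UMI, in both libraries pooled and among 1596 genes, included Socs1 itself (4.67-fold, 2.91 to 7.99). Others were Dusp5 (9.53-fold, 3.64 to 35.4), a phosphatase of ERK, Apold1 (5.39-fold), Csrnp1 (5.003-fold), Marcksl1 (4.76-fold), Gadd45b (4.29-fold), a stress response gene, and Iqcn, Msh5 and Stx2. The same direction in both libraries was a condition for being named, so that agreement was fixed in advance. Csrnp1 was the most abundant, at 311 CPM with and 62.1 CPM without Socs3. The 10 genes of cells with a Cish UMI had smaller ratios, from 1.69 (Frmd8) to 2.40 (Ttpal, 1.59 to 3.64), none above 50 CPM, and included Camkk2, Samsn1, Cpeb2 and Fut2. These lists are ordered by the values shown, so they are a description.

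Genes most like Socs3 and Cish across the 13 type levels were ranked by Pearson's r of log2(CPM + 1) among 5956 genes. For Socs3 they were Zfp131 (r = 0.969), Kdm6b (0.949), Ifitm3 (0.935), Zfp36 (0.932), an early response gene that destabilises mRNA, and Gbp2 (0.932), an interferon-induced GTPase. For Cish they were Ifit1 (0.969), an interferon-induced gene, Mdm2 (0.953), Sorbs3 (0.944), Rnf19a (0.935) and Casz1 (0.933). Ifit1 stood at 119 and 92.2 CPM in general capillary cells of the donor and recipient libraries and at 37.3 and 30.6 CPM in aerocytes. The 13 levels come from 2 libraries, so they share their depth and free RNA.

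The rest of the pathway was followed through a list of 83 ligands, receptors, kinases, other STATs, other inhibitors and targets. In general capillary cells 65 had enough UMIs, of which 0 were higher and 3 lower in the donor library, and the median log2 ratio was -0.05. All 3 were scarce: Lif (0.839 against 4.27 CPM), Cntfr (5.73 against 17.9 CPM) and Myc (5.38 against 9.39 CPM). Against the 9.23% of all genes given above, 4.62% of the listed genes were apart. In aerocytes 56 were tested, and Cebpd, a STAT3 target, was higher at 369 against 245 CPM (1.504-fold, 1.41 to 1.60), while Fgl2 (0.288 against 12.4 CPM) and Tslp (0.361 against 3.56 CPM) were lower. In venous cells 52 were tested, and Lrg1, another STAT3 target, was lower at 363 against 623 CPM (0.582, 0.506 to 0.669). Of the 18 early response genes, Hspa1b was lower in general capillary cells (77.5 against 117 CPM), Nr4a1 was lower in venous cells (224 against 367 CPM) and none was apart in aerocytes. Lif, Cntfr, Myc, Fgl2 and Tslp lay below the level of 50 CPM set for naming and were chosen after their values were seen, as were Il6, Il6ra, Osm, Il11ra1, Lepr and Il13ra1 below.

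Ligands of the family were sparse in endothelium. Il6 stood at 80.5 CPM in alveolar fibroblasts, 64.4 CPM in adventitial fibroblasts and 49.6 CPM in myofibroblasts, and at most 11.1 CPM in any endothelial type, that of recipient-library venous cells. Osm gave at most 0.427 CPM in any type, in a sort that leaves out leukocytes. The ligands with the highest levels in general capillary cells were Clcf1, a gp130 cytokine, at 16.8 and 11.5 CPM, Il15 at 8.11 and 8.54 CPM and Tslp at 7.97 and 9.82 CPM. Tslp reached 159 CPM in pericytes.

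Il6ra, Il11ra1 and Cntfr, which encode further chains that give gp130 its ligands, were distributed otherwise than Il6st. Il6ra stood at 127 CPM in alveolar fibroblasts and 65.5 CPM in alveolar type 1 cells, but at 1.68 and 2.13 CPM in general capillary cells, where Il6st was 256 and 294 CPM. Il11ra1 was 397 CPM in adventitial fibroblasts, 243 CPM in alveolar fibroblasts and 233 CPM in myofibroblasts. Cntfr was 122 CPM in myofibroblasts. Of the receptors outside the family, the highest in general capillary cells were Ifngr1 (384 and 376 CPM), Ifnar2 (315 and 280.0 CPM) and Ghr, the growth hormone receptor (234 and 216 CPM). Lepr and Il13ra1 divided the capillary types as Osmr did. Lepr was 79.5 and 72.6 CPM in general capillary cells against 2.60 and 2.72 CPM in aerocytes, and Il13ra1 34.6 and 39.3 CPM against 1.44 and 1.68 CPM. Ghr did not, with 217 and 226 CPM in aerocytes.

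Jak1 stood at 231 and 239 CPM in general capillary cells and 186 and 175 CPM in aerocytes. Jak2 was 30.5 and 30.3 CPM and Jak3 20.1 and 18.4 CPM in general capillary cells. Of the other STATs, Stat2 stood there at 95.7 and 96.9 CPM and Stat6 at 32.5 and 29.0 CPM. Of the other inhibitors these were the phosphatase gene Ptpn1 (89.4 and 114 CPM), the adaptor gene Sh2b3 (58.6 and 54.2 CPM) and Pias1 (49.1 and 40.6 CPM). None of the 4 kinases, the 4 other STATs tested or the 12 other inhibitors tested was apart between the libraries in general capillary cells.

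Among targets, Cebpd was high in general capillary and venous cells and low in aerocytes, as Socs3 was. It stood at 1906 and 1856 CPM in general capillary cells, 1614 and 1947 CPM in venous cells, and 369 and 245 CPM in aerocytes. Cebpd was 2533 CPM in myofibroblasts, above all of these levels, whereas Socs3 in myofibroblasts lay below general capillary and venous cells. In alveolar type 1 cells Cebpd was 57.8 CPM. Cdkn1a, a cell cycle inhibitor that p53 also induces, did not separate the capillary types in this way, with 867 and 1203 CPM in general capillary cells and 1153 and 1055 CPM in aerocytes. Mcl1, a survival gene of the BCL2 family, was 664 and 720.2 CPM in general capillary cells and 436 and 376 CPM in aerocytes.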

How the data were processed

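Both deposited matrices hold raw counts of UMIs for each gene in each barcode, made by the authors with Cell Ranger on mm10. The file headers and the submitters' processing notes give version 4.0.0, and the labels' protocol 3.0.1. Cell types were assigned from marker genes and not from an annotation by the authors. The members and lists were chosen with earlier results of these data known.

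Barcodes more than 3 scaled median absolute deviations out in genes, UMIs or mitochondrial share were left out (1332 and 473). Scrublet in scanpy 1.11.5 marked 1 donor-library barcode by its automatic threshold, a failed call, so the highest scores were removed at 0.8% per 1000 barcodes (321 and 124 barcodes). A cell needed 3 UMIs of a lineage's markers and 75% of all lineage marker UMIs. Within the lineage it needed 3 UMIs and 2 genes of a type and a mean marker level, each capped at the 90th percentile of positive cells, 1.25 times that of the next type. These limits were set on the files. Levels carry exact Poisson, shares exact Clopper-Pearson and ratios exact conditional 95% intervals. Ratios needed 20 UMIs in both groups together, and 3 counts set the limit for 0. Positions came from GENCODE M21 (GRCm38, that is mm10).

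All 10 genes are named. Other pathway genes were named when 1.5-fold apart at 50 CPM or more (up to 5 each way per type) or among the 3 highest of their role in general capillary cells. Likeness names 5 genes each, and cells with a UMI 10 each, with at least 100 UMIs after thinning. A few genes that these rules name are not reported here. The scripts were checked on simulated data. Alternatives covered shared barcodes, filter, doublets, gate, scaling, free RNA, thresholds and thinning.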

Additional observations from a re-analysis of the deposited data

Results flagged for a closer look

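The differences between libraries listed here went in opposite directions in different cell types, and whether the cell types differ was not tested. Socs3 was higher in the donor library in aerocytes (ratio 1.40) and slightly lower in general capillary cells (0.964). It was also lower in venous cells, at 0.729. Pim1 was higher in the donor library in general capillary cells (1.14) and lower in venous cells (0.764). Each rests on 1 library per group, and in aerocytes the Socs3 log2 ratio was 0.13 once the uncertain estimate of free RNA was subtracted.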

How the results depend on the processing

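No paired analysis was possible because each group had 1 library. Ratios of the 10 genes between libraries (289 recomputed values) kept their call in 284. Direction was compared only for ratios that were apart as reported, and none of these reversed. With doublets kept, the log2 ratio of general capillary over aerocyte cells was 2.12 for Socs3 and 1.42 for Cish in the donor library and 2.77 for Socs3 in the recipient library, and 2 genes were apart between libraries in aerocytes (Socs3 joined, at 0.63). Centred on the median ratio, the donor values were 2.25 and 1.43. With the mean of cells' own CPM, Socs3 gave 2.44 and 3.23, 5 pathway genes were apart in general capillary cells and 2 of the 10 genes in aerocytes. With free RNA subtracted, Socs3 gave 2.92 and 3.06 and donor-library Cish 1.80, and 5 pathway genes were apart. At a 2-fold threshold 0 genes were apart in aerocytes and 0 in venous cells. With 100 UMIs required, 1 pathway gene was apart in general capillary cells, and 1 of the 10 genes in venous cells. The stricter gate took Socs3 past 1.5-fold in venous cells, at -0.63. Unthinned shares are in the text, and the cause of these changes was not tested. Donor-library venous and arterial cells are few, and Stat5a in aerocytes and Osmr in venous cells are limited by counts.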
